A study of Mus musculus with 6 samples.

Results

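The SIX-family and EYA-family genes examined here are *Six2*, *Six4* and *Six5*, which encode homeodomain transcription factors, and *Eya1*, *Eya2*, *Eya3* and *Eya4*, which encode their cofactors. The 7 genes were taken by symbol from the 54525 gene rows of the count files. RNA-seq had been performed on wild-type (WT), untreated C2C12 cells, an established mouse myoblast line, with 3 cultures of myoblasts at day 0 (D0) and 3 cultures after 5 days of differentiation (D5). Differentiation was started by moving the cells to medium with little horse serum, and the sample labels call the cells of both days myoblasts. All cultures come from 1 line, so the spread between them does not include that between animals or lines.

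SIX-family proteins bind DNA through a SIX-type domain and a homeodomain, and in muscle they recognize the MEF3 site, an element of the promoter of *Myog* and of other muscle genes. EYA proteins do not bind DNA themselves. They are carried to it by SIX-family proteins, activate transcription there and also act as phosphatases, whereas DACH and Groucho proteins act with SIX-family proteins as corepressors. The network is known from the formation of limb muscle in the embryo and from the fast-fibre program of adult muscle.

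The MEF3 site is shown first because it links these factors to a gene that marks differentiation. In windows from 250 bases before to 50 bases after each RefSeq start site (GRCm38.p6), the motif TCAGGTTTC was searched on both strands. It was found in 141 of 32851 windows, 0.429% of them, which belong to 138 of 27025 genes. Windows were given for 5 of the 7 members, those other than *Eya1* and *Eya2*, and for 23 of 33 partner and target genes. Among all of these, *Myog* and *Six4* held the motif. Both are printed with 10 bases on each side, on the strand that reads TCAGGTTTC, with the motif in capitals.

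*Myog* MEF3, chr1:134289910-134289938, plus strand: agaggggggcTCAGGTTTCtgtggcgttg

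*Six4* MEF3, chr12:73113326-73113354, plus strand: atctggccgaTCAGGTTTCccccaggcca

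The motif in *Myog* begins 84 bases before the start site. *Six4* lies on the minus strand, so its motif reads in the direction opposite to the gene, and it begins 99 bases before one RefSeq start site and lies downstream of the other. In the GENCODE annotation of GRCm38 the printed bases lie in the untranslated part of the first exon of transcript Six4-201 and in an intron of Six4-202. The looser motif TCAGGTTNC, which includes the first, was in 1.21% of windows and added no member. The 250 bases before the *Myog* start site (chr1:134289754-134290003, plus strand) are printed because this promoter combines the MEF3 site with E-boxes (CANNTG), the sites of MYOD1 and its relatives, and all of these are in capitals.

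*Myog* upstream: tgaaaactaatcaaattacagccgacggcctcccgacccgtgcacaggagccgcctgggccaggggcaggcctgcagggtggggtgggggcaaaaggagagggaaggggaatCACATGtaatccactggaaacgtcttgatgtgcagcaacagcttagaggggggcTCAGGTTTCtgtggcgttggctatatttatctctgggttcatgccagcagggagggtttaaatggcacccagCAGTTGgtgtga

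E-boxes are common, and 72.3% of all windows held at least 1. Of the members, *Eya3* (CAACTG) and *Eya4* (CACTTG) had an E-box in their windows. *Six2*, *Six4* and *Six5* had none. A match gives the letters in a window and does not show that a factor binds there.

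The D0 libraries held from 36555048 to 40895840 counts on genes and the D5 libraries from 25449759 to 25811300. Levels are TMM-scaled CPM, the number of counts in each 1000000. TPM, which also divides by the exonic length of the gene, was used to compare the levels of different genes. The quasi-likelihood test of edgeR tested 16290 genes, and 82.9% of them passed an adjusted p under 0.05, 42.2% higher and 40.8% lower at D5. Passing the threshold was therefore common in these data. So was non-overlap in CPM between the days, with D5 above D0 in 42.2% of genes tested and D5 below D0 in 41.1%. In TPM these shares were 35.9% and 47.7%.

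Of the 7 members, 5 were tested. All 5 passed the threshold, as did 82.9% of all genes, with *Six4* and *Eya3* higher and *Eya4*, *Six5* and *Eya1* lower at D5. *Six5*, *Eya1* and *Eya3* had small log2 fold changes, between -0.28 and 0.10. *Six4* rose 1.71-fold and *Eya4* fell to 55.5% of its D0 level. *Eya2* was close to the limit of detection, and *Six2* (ENSMUSG00000024134.11, chromosome 17 from 85684277 to 85688274) had no count in any of the 6 libraries. With 3 counts as the most that an undetected gene would show in a library, *Six2* was not detectable at this depth. In RNA from whole cultures, fewer cells that express a gene and less RNA of it per cell cannot be told apart.

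*Six4* encodes a factor that acts in muscle precursors. The gene (ENSMUSG00000034460.9) lies on chromosome 12 of GRCm38 from 73099609 to 73113456, with 10855 exonic bases. Its counts were 2255, 2592 and 2646 at D0 and 2715, 2654 and 2622 at D5, although the D5 libraries were smaller. These correspond to 60.2, 61.6 and 65.7 CPM at D0 and 108, 108 and 105 CPM at D5. The D5 values lie close together and far above every D0 value. Non-overlap in this direction held for 42.2% of genes tested. The mean level went up from 62.5 ± 2.85 to 107 ± 1.46 CPM (mean ± SD, n = 3 per day), or 0.78 on the log2 scale (SE 0.038, FDR = 7.5e-18 in the quasi-likelihood test of edgeR, where FDR is the Benjamini-Hochberg adjusted p). The call was lost when the libraries were scaled by the ERCC spike-ins (0.21, edgeR FDR = 0.776) and in unscaled counts (0.09, edgeR FDR = 0.196). Of all genes tested, 23.6% had a log2 fold change at least as high. The genes with the most similar profile of CPM, by the distance of log2 values centred on each gene's mean over the 6 libraries, were *Spsb2* (distance 0.029), *Arhgap28* (0.060) and *Zfp568* (0.061) among 16289 genes.

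*Six5*, a relative known for its place beside the myotonic dystrophy kinase gene *Dmpk*, was the lower of the pair of detected SIX-family members. It (ENSMUSG00000040841.5, chromosome 7 from 19094594 to 19098549) had 201, 265 and 248 counts at D0 and 125, 119 and 122 at D5. In CPM these are 5.36, 6.30 and 6.15 against 4.97, 4.83 and 4.90. The groups did not overlap, with D5 below D0 as in 41.1% of genes tested, but D0 replicate 1 stood close to the D5 libraries. The log2 fold change was -0.28 (SE 0.10, edgeR FDR = 0.0152). This call was lost without D0 replicate 2 (log2 fold change -0.24, edgeR FDR = 0.0560), with DESeq2 (DESeq2 FDR = 0.0647) and with ERCC scaling (-0.86, edgeR FDR = 0.199). *Dmpk* ends 772 bases before *Six5* on the same strand, and no exonic base of *Six5* is shared with another gene. *Dmpk* was at 374 ± 1.56 CPM on D0 and 319 ± 8.78 CPM on D5 (SD, n = 3 each), or -0.23 on the log2 scale (edgeR FDR = 1.1e-07), and its call was lost with ERCC scaling (-0.78, edgeR FDR = 0.234). The genes closest to *Six5* in profile were *Eif2ak4* (distance 0.041), *Ppp1r3e* (0.082) and *Pigu* (0.084).

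*Eya4* was the most abundant member in myoblasts. EYA4 is known from hearing and from the heart as well as from muscle precursors. The gene (ENSMUSG00000010461.15, chromosome 10 from 23102963 to 23350786) has 9419 exonic bases. Its counts were 7528, 8312 and 8330 at D0 and 2816, 2713 and 2834 at D5. Scaled, the levels were 201, 198 and 207 CPM at D0 and 112, 110 and 114 CPM at D5. Every myotube library was thus far below every myoblast library, and non-overlap in this direction held for 41.1% of genes tested. The mean fell from 202 ± 4.64 to 112 ± 1.91 CPM (mean ± SD, n = 3 per day), or -0.85 on the log2 scale (SE 0.034, edgeR FDR = 3.0e-20). Of all genes tested, 19.1% had a log2 fold change at least as low. The genes most like it in profile were *Atf7ip* (distance 0.036), *Zfp664* (0.054) and *Fn1* (0.055), the last encoding fibronectin.

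*Eya3* is the paralog found in most tissues. It (ENSMUSG00000028886.15, chromosome 4 from 132638987 to 132724765) had 2219, 2443 and 2408 counts at D0 and 1611, 1543 and 1562 at D5. In CPM its level was 59.2, 58.1 and 59.8 at D0 and 64.1, 62.6 and 62.7 at D5. These values do not overlap, with D5 above D0 as in 42.2% of genes tested. The difference was small, at 0.10 on the log2 scale (SE 0.039, edgeR FDR = 0.0212). In TPM the groups overlapped, with 36.2 ± 0.836 at D0 and 34.7 ± 1.16 at D5 (SD, n = 3 each). The call was lost without D0 replicate 1 (log2 fold change 0.085), D0 replicate 2 (0.076) or D5 replicate 1 (0.090), with upper-quartile normalization (0.082), with total counts (0.013) and without a filter (0.045). The value turned to -0.47 with ERCC scaling and -0.58 in unscaled counts. A direction for *Eya3* was thus not fixed by these data. The gene *Xkr8* lies 131 bases beyond the end of *Eya3* on the opposite strand and shifted on the log2 scale by 1.32 (edgeR FDR = 1.0e-12), from 3.52 ± 0.441 to 8.76 ± 0.282 CPM (mean ± SD, n = 3 per day), a call lost with ERCC scaling (0.75, edgeR FDR = 0.270).

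*Eya1*, which acts upstream of the myogenic factors in the embryonic hypaxial lineage together with *Eya2*, changed little. It (ENSMUSG00000025932.14, chromosome 1 from 14168954 to 14310235) had 1227, 1459 and 1477 counts at D0 and 813, 728 and 758 at D5. Its CPM was 32.7, 34.7 and 36.6 at D0 and 32.3, 29.5 and 30.4 at D5. The lowest D0 library and the highest D5 library were nearly at the same level. The log2 fold change was -0.17 (SE 0.051, edgeR FDR = 0.00285), and with an offset for GC content it was -0.10 (edgeR FDR = 0.0663). With ERCC scaling the call was lost as well (-0.75, edgeR FDR = 0.261). Its nearest genes in profile were *Vgll2* (distance 0.066), *Rnft1* (0.067) and *Cbll1* (0.068).

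*Eya2* (ENSMUSG00000017897.18, chromosome 2 from 165595032 to 165771727) had 10, 7 and 13 counts at D0 and 1, 0 and 1 at D5. The counts were above the limit of 3 in all D0 libraries and in none of the D5 libraries. Its mean D0 level was 2.09-fold above that limit in the D5 libraries, without allowance for counting error in the few D0 counts. *Eya2* was removed by the filter on low counts and not tested there. Without the filter the log2 fold change was -3.10 (edgeR FDR = 3.8e-04), a fitted value that rests on few counts.

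**Figure D1:**
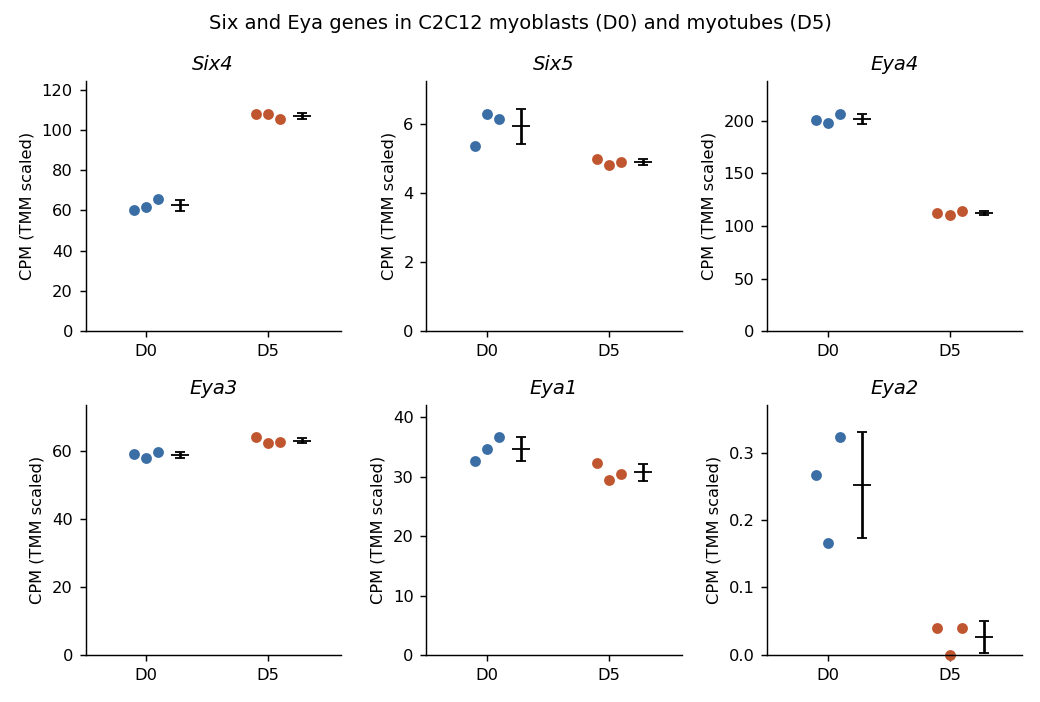
CPM scaled by TMM (vertical axes, each from 0) of the 6 detected SIX-family and EYA genes, with 1 point per library at D0 and D5 and the mean ± SD of 3 libraries beside the points. *Six4* is near 62.5 CPM at D0 and 107 CPM at D5, *Eya4* goes from 202 to 112 CPM, and the shifts of *Six5*, *Eya3* and *Eya1* are small beside them.

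Compared per length, the order of the members was the same in myoblasts and myotubes, but *Eya4*, *Eya3* and *Six4* came closer together. At D0 the levels were 74.1 ± 2.50 TPM for *Eya4*, 36.2 ± 0.836 for *Eya3*, 19.9 ± 1.20 for *Six4*, 15.4 ± 1.10 for *Eya1* and 6.84 ± 0.670 for *Six5* (SD, n = 3 each), and no neighbours in this order overlapped. At D5 they were 36.9 ± 1.10, 34.7 ± 1.16, 30.6 ± 0.873, 12.2 ± 0.823 and 5.06 ± 0.177 TPM (SD, n = 3 each). The D5 values of *Eya4* and *Eya3* overlapped between libraries. Within each D5 library *Eya4* was still slightly higher, at 37.7, 35.6 and 37.3 TPM against 36.0, 33.8 and 34.3 TPM. *Eya2* had 0.294 ± 0.0941 TPM at D0 and 0.0281 ± 0.0244 TPM at D5 (SD, n = 3 each).

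The makeup of the EYA family therefore differed between the days. *Eya4* made up 59.1%, 58.7% and 58.8% of the summed *Eya* TPM in the D0 libraries and 43.4%, 44.0% and 44.6% in the D5 libraries. The share of *Eya3* was 28.7% ± 0.354 at D0 and 41.4% ± 0.383 at D5 (SD, n = 3 each), and that of *Eya1* was 12.2% ± 0.514 and 14.6% ± 0.469 (SD, n = 3 each). None of these shares overlapped between the groups. Single genes also often did not overlap in TPM, in 35.9% (D5 above D0) and 47.7% (D5 below D0) of genes tested. The exact two-sided permutation test gave p = 0.1 for each of these *Eya* shares (n = 3 each), the smallest value that 3 libraries against 3 can give. The summed level of the 4 genes fell from 126 ± 4.40 TPM to 83.8 ± 2.97 TPM (SD, n = 3 each, p = 0.1 in the same exact test).

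*Six4* and *Six5* moved apart. Of the summed TPM of the 3 SIX-family members, *Six4* made up 75.7%, 73.0% and 74.7% in the D0 libraries and 85.7%, 86.1% and 85.6% in the D5 libraries, without overlap (exact two-sided permutation p = 0.1, n = 3 each). *Six5* made up the rest, 25.5% ± 1.32 at D0 and 14.2% ± 0.232 at D5 (SD, n = 3 each). The sum itself was 26.8 ± 1.75 TPM at D0 and 35.6 ± 1.03 TPM at D5 (SD, n = 3 each, p = 0.1 in the same exact test). In CPM it was 68.4 ± 3.18 and 112 ± 1.47 (SD, n = 3 each). This rise depends on the scaling, since *Six4* makes up most of the sum and lost its call with ERCC scaling and in unscaled counts. Of the paralogs outside the members, *Six6* had no counts and *Six3* at most 5 in a library.

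**Figure D2:**
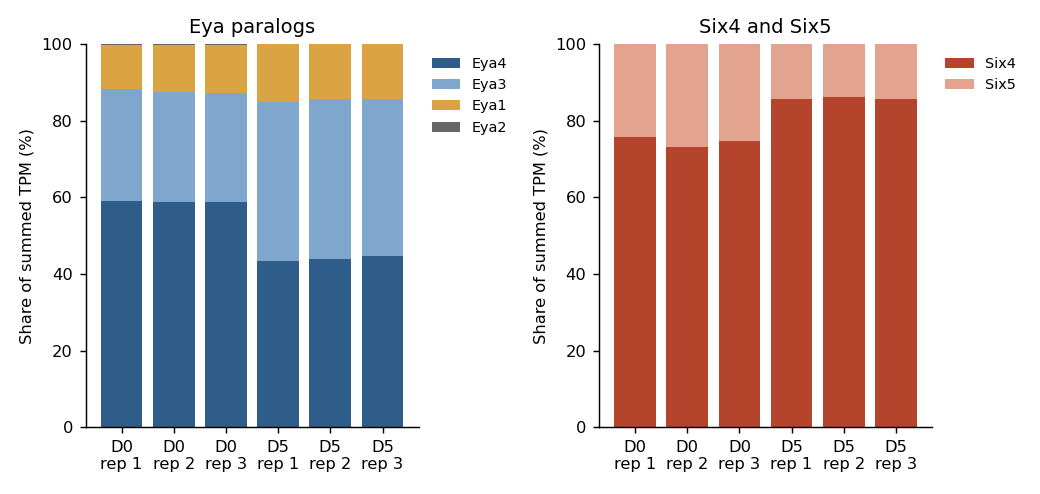
Share of the summed TPM of a family (percent, stacked bars, 1 bar per library) taken by each *Eya* paralog on the left and by *Six4* and *Six5* on the right. The *Eya4* part shrinks from 58.8% to 44.0% on average while that of *Eya3* grows from 28.7% to 41.4%, and *Six4* grows from 74.5% to 85.8% of the sum of the SIX-family members.

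A ratio of the counts of 2 genes within a library does not depend on how the libraries are scaled. It is not divided by gene length, so its change between the days can be read but not which gene has the higher level. The counts of *Six4* were 0.300, 0.312 and 0.318 times those of *Eya4* in the D0 libraries and 0.964, 0.978 and 0.925 times in the D5 libraries, a 3.09-fold shift of the ratio. *Eya4* had 3.39, 3.40 and 3.46 times the counts of *Eya3* at D0 and 1.75, 1.76 and 1.81 times at D5. For *Six4* over *Six5* the ratios were 11.2, 9.78 and 10.7 at D0 and 21.7, 22.3 and 21.5 at D5. None of these 3 ratios overlapped between the days, and the share of all gene pairs without overlap was not computed. *Eya3* over *Eya1*, at 1.81, 1.67 and 1.63 against 1.98, 2.12 and 2.06, shifted 1.21-fold. These pairs were chosen after the values were seen, so no test is given.

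**Figure D3:**
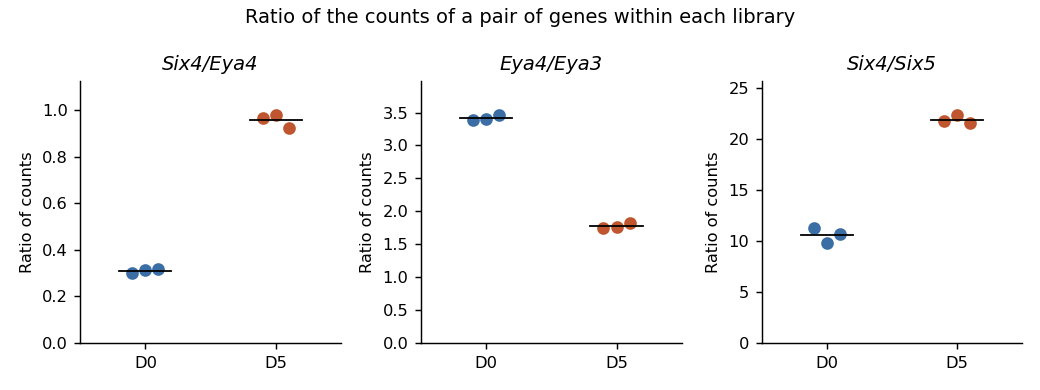
Ratio of the counts of a pair of genes within each library (vertical axes from 0, 1 point per library, line at the mean of 3). *Six4* relative to *Eya4* goes from about 0.312 to 0.964, *Eya4* relative to *Eya3* from about 3.40 to 1.76 and *Six4* relative to *Six5* from about 10.7 to 21.7, where the values are the middle libraries of each day.

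The scaling of the libraries decided how far single changes reached. In unscaled counts the median log2 fold change of all genes was -0.68, and *Six4* was at 0.09 and *Eya4* at -1.53. Less that median, *Six4* stood at 0.77 and *Eya4* at -0.85. Scaling by the ERCC spike-ins, which are synthetic RNAs, gave all genes a median of -0.58. The share of spike-in counts was 0.859%, 0.828% and 0.726% in the D0 libraries and 1.20%, 0.720% and 2.09% in the D5 libraries. This share thus varied more among the D5 libraries. The standard errors of the 5 tested members lay between 0.52 and 0.53 with this scaling, against 0.034 to 0.10 with TMM. *Six4* was then at 0.21 and *Eya4* at -1.42, still past the threshold (edgeR FDR = 0.0232).

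**Figure D4:**
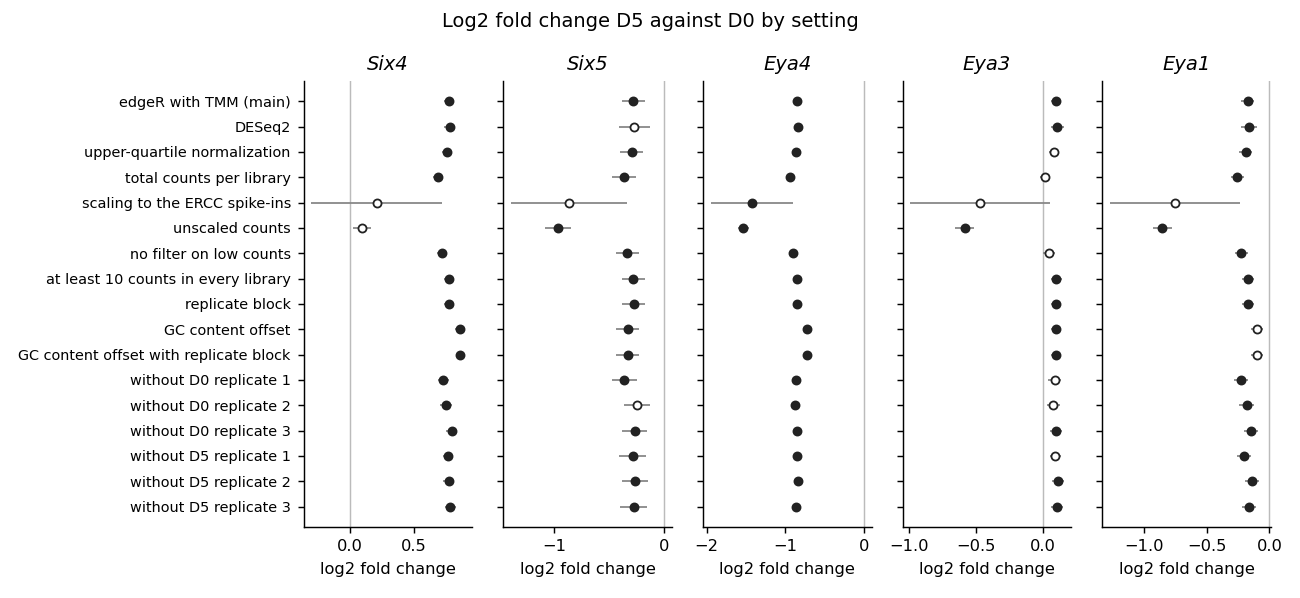
Log2 fold change of D5 against D0 (horizontal axes, bars are standard errors) of the 5 tested members in each setting, filled where the adjusted p is under 0.05 and open where it is not. *Eya4* is filled throughout, *Six4* is open with ERCC scaling (0.21) and unscaled counts (0.09), and *Eya3* lies on both sides of 0.

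The partners of SIX-family and EYA proteins moved in both directions. *Dach1* and *Dach2*, the corepressor genes that complete the network, showed at most 1 count in any library. Of their relatives, *Ski* was at 0.48 and *Skil* at -0.59 on the log2 scale, and both were called. *Sobp*, which encodes a SIX-binding protein, fell from 108 ± 2.43 to 42.5 ± 4.43 CPM (mean ± SD, n = 3 per day), or -1.35 on the log2 scale (edgeR FDR = 2.2e-21). Among the 5 Groucho corepressor genes, 2 rose and 2 fell, with log2 fold changes of 1.16 for *Tle2*, 0.58 for *Aes*, -0.48 for *Tle1* and -0.48 for *Tle3*, and *Tle4* was at 0.19 (edgeR FDR = 0.141). The share called is near the background of 42.2% higher and 40.8% lower over all genes. In unscaled counts *Ski* was at -0.20 and *Aes* at -0.10. With ERCC scaling *Sobp* kept its call, and those of *Ski*, *Skil* and the Groucho genes were lost. *Skil*, *Tle1* and *Tle3* were then further from 0, at -1.16, -1.09 and -1.04 with standard errors of 0.52, 0.53 and 0.52, whereas *Tle2* was at 0.60, *Aes* at 0.02 and *Ski* at -0.098. *Kdm6a*, whose product is known to be brought to muscle genes by SIX4, was at 0.11 on the log2 scale (edgeR FDR = 0.0122), a call that was lost with total counts (0.021), without a filter (0.052) and without D0 replicate 1 (0.077), and the value turned to -0.46 with ERCC scaling and -0.58 in unscaled counts.

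Of 6 transcription factors that act before or beside the SIX-family proteins in the myogenic lineage, 2 rose, 3 fell and *Pax3* had at most 1 count, beside 42.2% and 40.8% of all genes called higher and lower. *Myog* and *Myf6*, factors of differentiating cells, were at 7.54 and 1.73 on the log2 scale, and the call of *Myf6* was lost with ERCC scaling (1.19). *Pax7*, *Myf5* and *Myod1*, which are active in myoblasts, were at -1.71, -2.32 and -0.71.

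The genes known as targets of SIX-family proteins were mostly higher at D5. Of 8 such genes, 7 were tested, 5 were higher and 2 lower, and their median log2 fold change was 1.17 against 0.0022 over all genes tested. *Myog*, which encodes the differentiation factor myogenin and holds the MEF3 site printed above, had 112, 124 and 94 counts at D0 and 12920, 12775 and 12737 at D5. *Tnnc1*, the troponin C gene of heart and slow muscle, shifted on the log2 scale by 9.30. *Slc12a2*, *Aldoa* and *Ezr* had smaller rises, with log2 fold changes of 1.96, 1.17 and 0.68. With ERCC scaling the calls of *Aldoa* (0.61, edgeR FDR = 0.361) and *Ezr* (0.13, edgeR FDR = 0.871) were lost, and in unscaled counts *Ezr* was at 0.0023 (edgeR FDR = 0.977). *Ccnd1*, a cyclin of proliferating cells, and *Igfbp5* were lower, at -0.79 and -0.70, and *Ccna1* had no count. The 7 fast-fibre genes, which are known to depend on SIX-family and EYA proteins, were all higher, from 1.17 for *Aldoa*, whose call was lost with ERCC scaling, to 9.13 for *Atp2a1*. *H2afx*, which encodes the histone that EYA phosphatases act on, fell to 7.18% of its D0 level, from 173 ± 4.78 to 12.4 ± 0.661 CPM (mean ± SD, n = 3 per day). These counts stand beside the 42.2% and 40.8% of all genes that were called higher and lower.

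**Figure D5:**
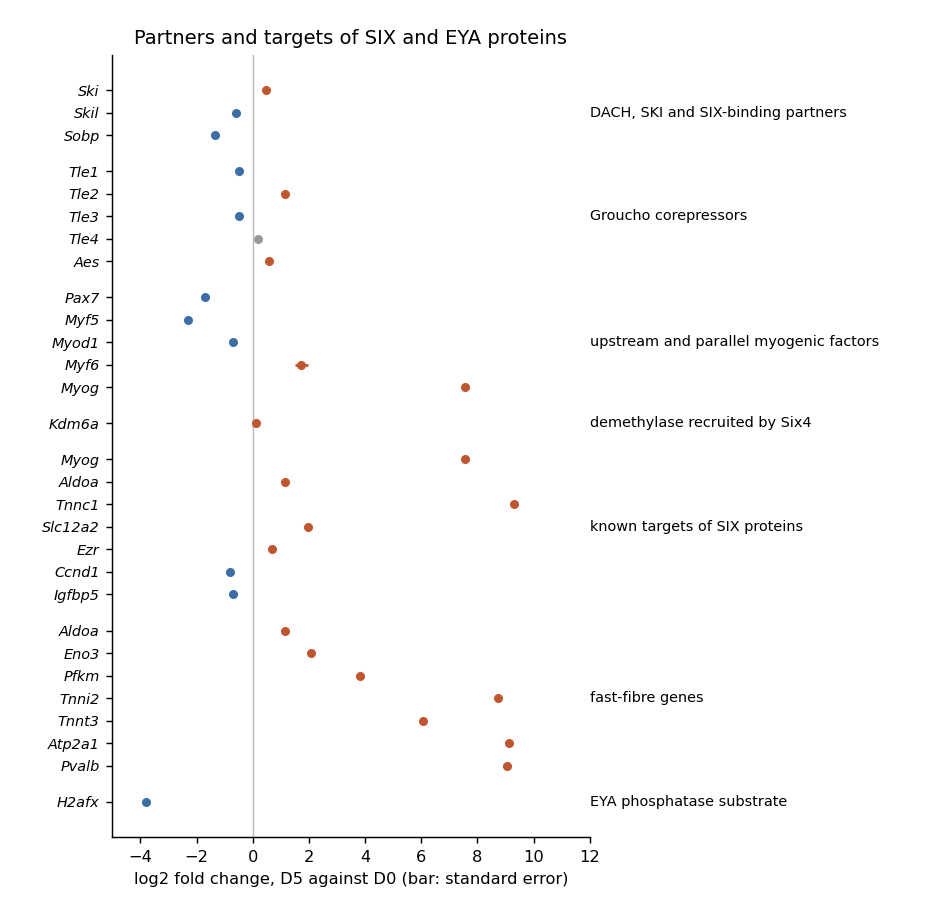
Log2 fold change of D5 against D0 (horizontal axis, bars are standard errors, mostly smaller than the points) of the tested partner and target genes by list, in orange where higher, blue where lower and grey where no call was made. *Tnnc1* (9.30) and *Atp2a1* (9.13) lie far to the right and *H2afx* (-3.80) to the left, and the partners lie between -1.35 and 1.16.

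The paper calls the cells myoblasts at D0 and myotubes at D5, and these states were checked against marker genes. All 6 myotube markers were higher at D5, with a summed level of 5837 to 6241 CPM in the D0 libraries and 33217 to 34834 CPM in the D5 libraries. Nearly all of the D0 sum was *Ttn*, the gene of the giant sarcomere protein titin, with 6024 ± 199.9 CPM (SD, n = 3). The other 5 markers had mean levels between 1.57 and 21.6 CPM at D0 and log2 fold changes between 7.32 and 11.44. All 5 proliferation markers were lower, from 1737 to 1768 CPM at D0 to 52.2 to 62.2 CPM at D5. *Pax7* and *Myf5*, markers of satellite and reserve cells, summed to between 139 and 144 CPM at D0 and between 29.2 and 31.5 CPM at D5. Of 4 adipocyte markers *Pparg* fell while *Adipoq* and *Plin1* showed at most 1 count and *Fabp4* at most 11 in a library, with sums of 18.3 to 20.3 CPM and 6.99 to 8.39 CPM. Of 4 osteoblast markers *Runx2* fell while *Sp7*, *Bglap* and *Alpl* had at most 5 counts, with sums of 109 to 114 CPM and 41.4 to 43.1 CPM. The part of the share of cells in each state in the changes of *Six4* and *Eya4* was not tested.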

How the data were processed

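The authors deposited counts of reads per gene from featureCounts on GRCm38, without normalization, for 1 library per culture. The sample labels name Tophat2 and the paper's methods HISAT2 as the aligner. The annotation release and the strand setting are not given in the sources used here. Exonic lengths, positions and overlaps came from GENCODE M21, which holds 99.9% of the gene identifiers. Promoter windows came from RefSeq. No exonic base of a member is shared with another gene, and at most 0.0978% of its 50-base stretches occur in a paralog.

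Neither the 92 ERCC rows nor the unnamed total row entered library sizes or tests. TMM, CPM and the quasi-likelihood test (edgeR 4.0.16, R 4.3.3, filterByExpr) used the deposited counts. The SE is |log2 fold change| over the root of F, and p-values were adjusted by Benjamini-Hochberg over all genes tested. Replicates differed by more than sampling noise (chi-square over degrees of freedom, 2.28 to 3.71). Similar genes were the 3 with the smallest distance, on log2(CPM + 0.1). The genes named are the members, the genes of the lists, neighbouring genes and these similar genes. Some genes of the lists are not reported here. The members and lists were chosen with earlier results of these data known. The scripts were tested on simulated data. The alternatives were DESeq2 1.42.0, other scalings and filters, a replicate block, an offset for GC content of the longest transcript and leaving out each library. The limit of 3 counts covers counting error only, and p-values measure the spread between these cultures.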

Additional observations from a re-analysis of the deposited data

How the results depend on the processing

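Over the alternatives, 64 of 80 log2 fold changes of the members kept their direction and their side of the threshold, 14 kept the direction but not the call and 2 changed sign. Changing the scaling had the widest effect. With ERCC scaling the log2 fold change was 0.21 for *Six4*, -0.86 for *Six5*, -0.75 for *Eya1* and -0.47 for *Eya3*, which left 0 members higher and 1 lower, 9 list genes higher, and 1813 genes higher and 3747 lower in all. In unscaled counts *Six4* was at 0.093 and *Eya3* at -0.58, 0 members were higher, and of all genes 3353 were higher and 10953 lower, against 6869 and 6641 after TMM. *Eya3* was at 0.082 with upper-quartile normalization, 0.013 with total counts and 0.045 without a filter, each of which left 1 member higher. *Six5* was at -0.27 with DESeq2. *Eya1* was at -0.10 with the GC offset and at -0.099 with the GC offset and replicate block. The cause was not tested.

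Leaving out each library in turn gave log2 fold changes from 0.73 to 0.80 for *Six4*, -0.87 to -0.83 for *Eya4*, -0.36 to -0.24 for *Six5*, -0.23 to -0.14 for *Eya1* and 0.076 to 0.11 for *Eya3*, with 1 to 2 members higher and 2 to 4 lower. The fourth was *Eya2*, which passed the filter without any one D5 library, with values from -3.42 to -2.54. *Tle4* was called higher without D5 replicate 3 (0.28).

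Some genes that are no members changed sign. With ERCC scaling *Ski* was at -0.098, *Tle4* at -0.34, *Kdm6a* at -0.46 and *Mnat1*, the gene beside *Six4*, at -0.37. In unscaled counts these were at -0.20, -0.49, -0.58 and -0.49, and *Aes* was at -0.10.

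In place of TPM, CPM gave shares of 68.2% and 54.4% for *Eya4* and 19.96% and 30.7% for *Eya3* of the *Eya* sum at D0 and D5, and 91.3% and 95.6% for *Six4* of the sum of the SIX-family members, because a longer gene counts for more in CPM. The mean D0 level of *Eya2* was 3.13-fold above the D5 limit with ERCC scaling and 3.33-fold in unscaled counts, and 1.80-fold to 2.45-fold without single libraries.

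Replicate numbers are shared by D0 and D5, but the labels give them no common origin. Same-numbered libraries deviated together with correlations of 0.022, 0.12 and 0.057, so they were not taken as pairs. With the replicate block 2 members were higher and 3 lower, as without it, *Six4* at 0.78, *Six5* at -0.28, *Eya1* at -0.17, *Eya3* at 0.10 and *Eya4* at -0.85, and 6894 genes were higher and 6664 lower.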
